A study of Mus musculus with 6 samples.

Results

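The immediate early transcription factors described here are 10 genes, Fos, Fosb, Fosl2, Jun, Junb, Jund, Atf3, Egr1, Ier2 and Klf4. They were found by gene symbol among the 23521 transcript clusters (the array's unit for a gene) that the platform table pairs with exactly 1 symbol. All 10 were measured. They take up 11 clusters, because Jund has 2, and the cluster with the higher mean stands for Jund.

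Colonic mucosa that looked normal and lay beside tumours was taken from 6 male BALB/c mice, 1 Affymetrix Mouse Gene 2.0 ST array per mouse. Of these, 4 were wild type (WT, Mthfd1S+/+) and 2 were heterozygous for a deficiency of the synthetase activity of the folate enzyme MTHFD1 (Mthfd1S+/-), on a background reached by at least 10 backcrosses. Mice of both genotypes had received the carcinogen azoxymethane (AOM), given intraperitoneally at 6 mg/kg, and, 1 and 4 weeks later, 2 courses of 4 days of 3% DSS (dextran sulfate sodium), an agent that damages the lining of the colon. They were killed 13 weeks after the injection; the labels give their age as 7 months, and the protocol gives 3 months at injection. No mouse without AOM and DSS and no tumour is among the arrays, and how the allele acts on the transcript is not given in the sources used here.

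Immediate early genes are transcribed within minutes of a stimulus, from factors already present in the cell, and their RNAs are short-lived. Fos and Jun family proteins pair through leucine zippers to form AP-1, which binds DNA as a dimer, and Atf3 belongs to a related zipper family. Egr1 and Klf4 are zinc finger factors. In the colon Klf4 is known for its place in the differentiated cells of the crypt, goblet cells among them, while growth factor, injury and cytokine signals reach Fos and Egr1 through MAP kinases.

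Start regions of Fos, Fosb and Atf3, which read lower in Mthfd1S+/- mice, are shown with those of Junb and Jun, which did not, because regulators bound there set immediate early transcription. RefSeq promoter sequences of the build GRCm38.p6 were matched for 8 of the 10 genes, of which 5 are printed. Egr1 and Ier2 had no matched sequence. Each line holds the 110 bases before the annotated start, 5′ to 3′ on the gene's own strand. Capitals mark TGACG, the core of the cyclic AMP response element, in Atf3 as it reads on the opposite strand. They also mark TATAAA, and the 8 letters TGACATCA, which were looked for in Jun after its sequence had been seen.
Fos, chr12:85473780-85473889, plus strand: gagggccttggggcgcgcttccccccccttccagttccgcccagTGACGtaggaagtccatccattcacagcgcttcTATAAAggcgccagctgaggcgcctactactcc
Fosb, chr7:19310046-19310155, minus strand: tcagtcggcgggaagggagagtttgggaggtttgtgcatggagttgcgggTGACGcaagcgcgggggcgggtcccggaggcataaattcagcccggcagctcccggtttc
Atf3, chr1:191183334-191183443, minus strand: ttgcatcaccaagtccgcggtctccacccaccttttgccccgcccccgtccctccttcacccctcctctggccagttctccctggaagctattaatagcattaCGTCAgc
Junb, chr8:84978749-84978858, minus strand: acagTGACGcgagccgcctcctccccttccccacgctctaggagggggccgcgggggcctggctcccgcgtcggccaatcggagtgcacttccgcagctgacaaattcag
Jun, chr4:95052223-95052332, minus strand: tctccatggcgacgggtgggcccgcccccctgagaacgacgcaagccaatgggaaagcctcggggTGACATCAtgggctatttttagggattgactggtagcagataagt

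Over the 250 bases before the start, on both strands, TGACG (which the palindrome named below contains) stood in 5 of the 8 promoters (Fos, Fosb, Atf3, Junb and Klf4) and in 17.8% of all 32851 promoters of the RefSeq table. Fos held it 2 times, the nearer one beginning 66 bases before the start. In Fosb it began 60 bases before the start, in Atf3 at 7, in Junb at 106 and in Klf4 at 232. TATAAA stood in Fos alone of the 8, and in 12.4% of all promoters. TGACATCA stood in Jun, and in 2.93% of all. The full palindrome TGACGTCA, the AP-1 site TGANTCA and the CArG box, which the serum response factor binds, were in 0 of the 8 windows and in 1.55%, 6.75% and 1.47% of all. These are letter matches only. Bases farther than 250 before the start, and any promoter of Egr1 or Ier2, were not searched, so sites there are not counted. TGACG stood in Fos, Fosb, Atf3 and Klf4, the genes at an unadjusted p under 0.05 below. Of the other genes searched, Junb had it and Fosl2, Jun and Jund did not. A link between TGACG and the genotype differences was not tested.

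The deposited values are on the log2 scale, so a difference of 1 is a doubling. Medians over all clusters were 5.485 to 5.532 for the 6 arrays. All 10 genes and all 10 epithelial markers (Epcam, Cdh1, keratins and others) averaged above 4.691, the bound of the lowest 25% of clusters, and the epithelial list had means of 10.75 to 10.85 in WT and 10.66 to 10.76 in Mthfd1S+/- mice. All 12 smooth muscle markers were above it too. In such bulk samples fewer cells of a type and less RNA per cell cannot be told apart. The targeted gene, Mthfd1, averaged 7.63 in WT and 7.79 in Mthfd1S+/- mice (limma adjusted p 0.890), which does not separate the genotypes. Genotypes were compared with limma, adjusted by Benjamini-Hochberg over all 23521 clusters. No cluster passed an adjusted p of 0.05 (0% of those tested, smallest adjusted p 0.837), and unmoderated least squares also gave 0, so no change is called below. At an unadjusted p under 0.05 were 1363 clusters, or 5.79%, of which 573 (2.44% of all) were lower in Mthfd1S+/- mucosa. Quantile normalization again gave 432 lower of 1510, and centring each array on its median 401 of 1511.

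**Figure D1:**
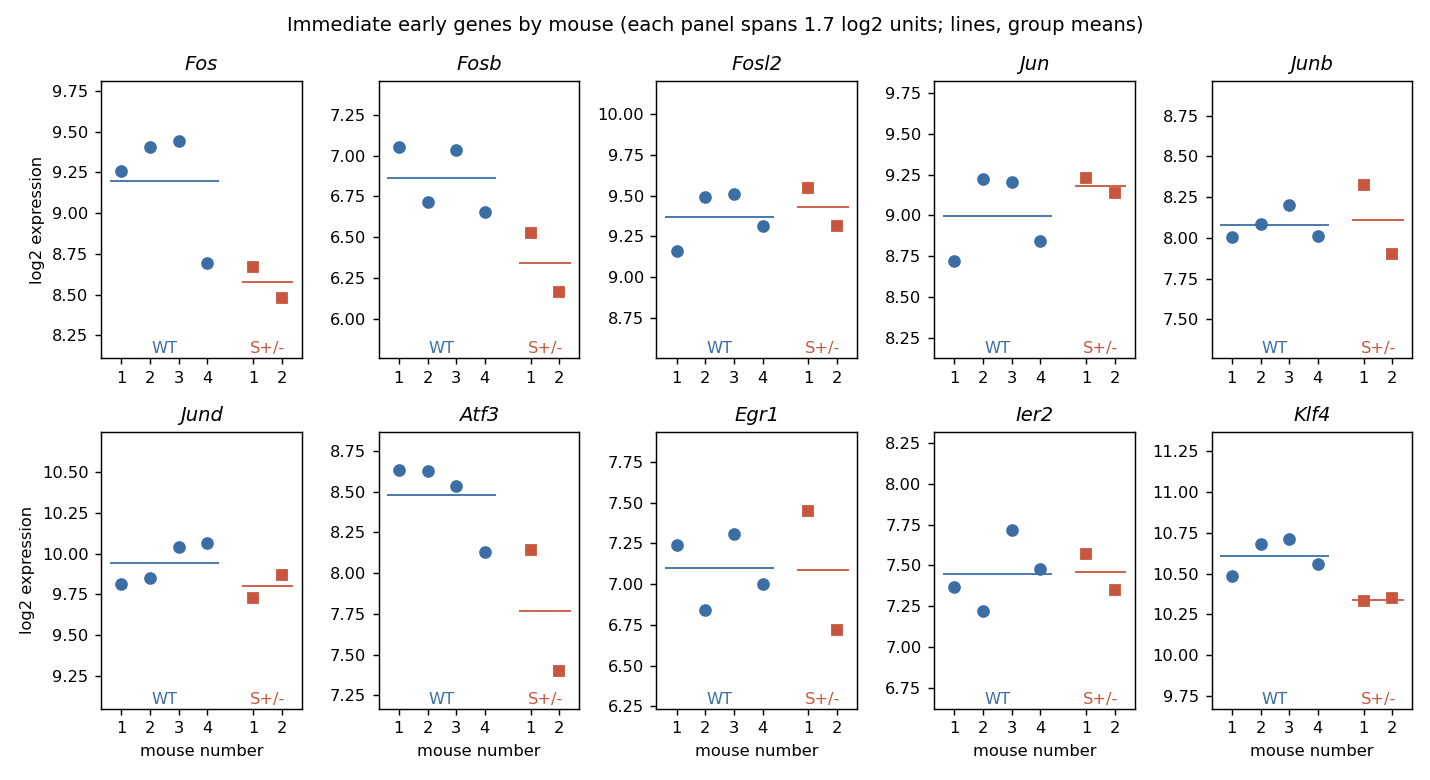
Log2 expression (vertical axis) of the 10 genes in each mouse, blue circles for the 4 WT and red squares for the 2 Mthfd1S+/- mice, with horizontal lines at group means; every panel spans the same height. Fos, Fosb and Klf4 show no overlap between genotypes, Atf3 overlaps through 1 WT mouse, and in Egr1 the 2 Mthfd1S+/- mice are the highest and the lowest of the 6.

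Among the 10 genes, Atf3, Fosb, Fos and Klf4 stood lower in Mthfd1S+/- mucosa at an unadjusted p under 0.05, 4 of 10 beside the 2.44% of all clusters, and none stood higher at that threshold. In all, 6 of the 10 had negative and 4 had positive differences, and the median difference was -0.078 on the log2 scale, beside 0.012 over all clusters, of which 54.0% were positive. None of the 10 passed the adjusted threshold. Without the second Mthfd1S+/- mouse 0 of the 10 were at an unadjusted p under 0.05, and without limma's moderation of the variance 1 was, Klf4. Since these genes were chosen with earlier results in view, the count is a description. With 2 Mthfd1S+/- mice the exact permutation test of single values cannot go below 0.0667, so it cannot reach 0.05 here.

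Fos, whose protein is the founding partner of Jun in AP-1, read 9.26, 9.41, 9.44 and 8.69 in the 4 WT mice, in the order of their numbers, whereas the Mthfd1S+/- pair read 8.67 and 8.48. The first 3 WT mice were high and close together. WT mouse 4 sat just above the first Mthfd1S+/- mouse, so the groups did not overlap but nearly touched. Means were 9.20 ± 0.35 (SD, n = 4) and 8.57 ± 0.13 (SD, n = 2), a log2 difference of -0.63 (95% interval -1.08 to -0.17), or 1.54-fold lower. Limma gave an unadjusted p of 0.0134 and an adjusted p of 0.837, and the exact two-sided permutation p was 0.133. When a mouse was left out the difference ranged from -0.795 (without WT mouse 4) to -0.53 (without the second Mthfd1S+/- mouse, unadjusted limma p 0.0917).

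Fosb, a Fos relative known for rapid induction, read 7.05, 6.72, 7.03 and 6.65 in WT and 6.52 and 6.16 in Mthfd1S+/- mice. Both Mthfd1S+/- mice were below every WT mouse. The means were 6.87 ± 0.21 (SD, n = 4) and 6.34 ± 0.26 (SD, n = 2), and the difference was -0.52 (95% interval -0.87 to -0.17), or 1.44-fold lower. The limma p was 0.00855 unadjusted and 0.837 adjusted. Without the second Mthfd1S+/- mouse it was -0.34.

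Fosl2 (Fra-2) encodes a family member that lacks the strong activation domain of Fos. It read 9.16, 9.49, 9.51 and 9.31 in WT and 9.55 and 9.31 in Mthfd1S+/- mice, so the groups overlapped. Its difference of 0.062 (95% interval -0.22 to 0.35) lay within the spread between mice. A change of the size measured for Fos lies outside that interval.

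The Jun family gave no difference at an unadjusted p under 0.05. Jun read 8.72, 9.23, 9.20 and 8.84 in WT and 9.23 and 9.14 in Mthfd1S+/- mice. Its difference of 0.19 (95% interval -0.17 to 0.54) was the highest of the 10 genes and came with low values in WT mice 1 and 4. Junb, which can restrain Jun activity, read 8.01, 8.08, 8.20 and 8.01 in WT and 8.32 and 7.90 in Mthfd1S+/- mice. Both Mthfd1S+/- mice were thus outside the WT range, on opposite sides, and the difference was 0.036 (95% interval -0.25 to 0.33).

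Jund, the family member known for steady expression in resting cells, read 9.81, 9.85, 10.04 and 10.07 in WT and 9.73 and 9.87 in Mthfd1S+/- mice. Its difference was -0.14 (95% interval -0.38 to 0.099), and its range over the 6 mice, 0.34, was the smallest of the 10 genes. The other Jund cluster, which may read other parts of the transcript, had a difference of -0.013.

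Atf3, a stress-induced factor that represses many targets as a homodimer, had the largest difference of the 10. It read 8.63, 8.63, 8.53 and 8.13 in WT and 8.14 and 7.40 in Mthfd1S+/- mice. The first Mthfd1S+/- mouse sat level with WT mouse 4, which makes the groups overlap, and the second was far below all others. Means were 8.48 ± 0.24 (SD, n = 4) and 7.77 ± 0.52 (SD, n = 2), a difference of -0.71 (95% interval -1.20 to -0.22), or 1.64-fold lower. Limma gave 0.00978 unadjusted and an adjusted p of 0.837, and the exact permutation p was 0.133. The difference was -0.34 without the second and -1.08 without the first Mthfd1S+/- mouse, so its size turns on which of them is used.

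Egr1, a zinc finger factor that MAP kinase signals induce, read 7.24, 6.84, 7.31 and 7.001 in WT and 7.45 and 6.72 in Mthfd1S+/- mice. The 2 Mthfd1S+/- mice were the extremes of the 6, and the difference was -0.013 (95% interval -0.48 to 0.46). It was 0.35 without the second and -0.38 without the first of them. That interval is wide enough to hold a change of about the size measured for Klf4.

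Ier2, a small nuclear protein induced by growth factors, read 7.37, 7.22, 7.72 and 7.48 in WT and 7.57 and 7.35 in Mthfd1S+/- mice. Both values lay inside the WT range, and the difference was 0.0145 (95% interval -0.31 to 0.34).

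Klf4 read 10.49, 10.68, 10.71 and 10.56 in WT and 10.33 and 10.35 in Mthfd1S+/- mice. The Mthfd1S+/- mice were close together and below every WT mouse. Means were 10.61 ± 0.10 (SD, n = 4) and 10.34 ± 0.012 (SD, n = 2), a difference of -0.27 (95% interval -0.48 to -0.055), or 1.20-fold lower. Limma gave 0.0197 unadjusted and an adjusted p of 0.837. The exact permutation p was 0.0667, the smallest the design allows. Leaving out either Mthfd1S+/- mouse hardly moved the size (-0.26 and -0.28), with unadjusted p-values of 0.0746 and 0.0615.

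**Figure D2:**
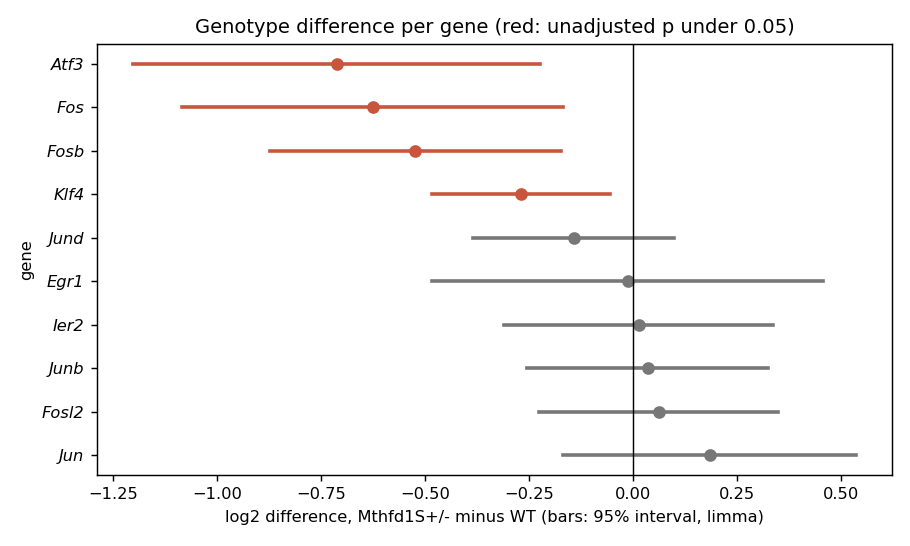
Log2 difference, Mthfd1S+/- minus WT (horizontal axis), of each gene, with 95% intervals from limma; red marks an unadjusted p under 0.05. The intervals of Atf3, Fos, Fosb and Klf4 lie below 0 and those of the other 6 genes include it.

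Groups did not overlap for 3 of the 10 genes, Fos, Fosb and Klf4, each lower in Mthfd1S+/- mice. Over all clusters 14.0% did not overlap and 6.04% did so with lower values in Mthfd1S+/- mice. The labels give each mouse an identifier with the letter A or B, whose meaning is not given in the sources used here, and each letter holds both genotypes. Within A, the only pair of mice differed by -0.59 for Fos, -0.53 for Fosb, -0.496 for Atf3 and -0.16 for Klf4. Within B, the Mthfd1S+/- mouse differed from the mean of 3 WT mice by -0.70, -0.64, -1.03 and -0.30 in the same order. For Fos, Fosb and Klf4 the shared sign follows from groups that do not overlap. Jun (0.51 and 0.048) and Jund (-0.085 and -0.115) also had 1 sign under both letters. Egr1 had 0.21 within A and -0.33 within B, and Junb had 0.32 and -0.197. Fosl2 (0.39 and -0.125) and Ier2 (0.21 and -0.12) also had opposite signs under the letters.

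The mice differed in how many of the genes were high. WT mouse 3 was above the 6-mouse mean for 10 of 10 genes and held the highest value of Fos, Ier2 and Klf4. The second Mthfd1S+/- mouse was above the mean for 1 of 10 genes (Jun) and held the lowest value of Fos, Fosb, Junb, Atf3 and Egr1. The first Mthfd1S+/- mouse held the highest value of Fosl2, Jun, Junb and Egr1 and the lowest of Jund and Klf4. With each gene centred over the 6 mice, means of the 10 genes were 0.032, 0.072, 0.23 and -0.068 in WT mice 1 to 4. They were 0.0092 and -0.27 in the Mthfd1S+/- mice, the first inside and the second below the WT range.

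Marker lists of other cell types differed between the mice too. The second Mthfd1S+/- mouse had the highest centred mean of the smooth muscle list (0.41), of enteric neurons and glia (0.33) and of fibroblasts (0.24), and the lowest of epithelium (-0.12). All 12 smooth muscle markers were higher in Mthfd1S+/- mice, with list means of 9.69 to 10.04 in WT and of 9.88 and 10.36 in Mthfd1S+/- mice, and 9 of 10 epithelial markers were lower. All 7 neuron and glia markers and all 8 fibroblast markers measured were higher as well. The first Mthfd1S+/- mouse had centred means of -0.068 for smooth muscle and -0.016 for epithelium, within the WT range for both. Its goblet cell mean (-0.125) was the lowest of all mice and its absorptive colonocyte mean (0.071) the highest, both outside the WT range. In that mouse Fos, Fosb, Jund and Klf4 were below every WT mouse. Among WT mice, mouse 4, lowest of them for Fos, Fosb and Atf3, had the lowest epithelial mean (-0.023) and the highest smooth muscle (0.093) and neuron and glia (0.145) means. The part of tissue make-up in the low values of these mice was not tested. Endothelial (7 measured), goblet cell (8), absorptive colonocyte (8) and leukocyte markers (13 of 14 measured) had medians of -0.012, -0.0063, -0.021 and -0.00099. Of the goblet cell markers 2 were higher and 6 lower, Spink4 by -0.31 (unadjusted limma p 0.0136). Of the absorptive markers 5 were lower and 3 higher, Cyp2c55 by 0.57 (unadjusted limma p 0.00148). Both genes had an adjusted limma p of 0.837. The leukocyte genes S100a8 and S100a9 lay below 4.691, and of 5 red blood cell genes 1 was measured, at 0.13.

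**Figure D3:**
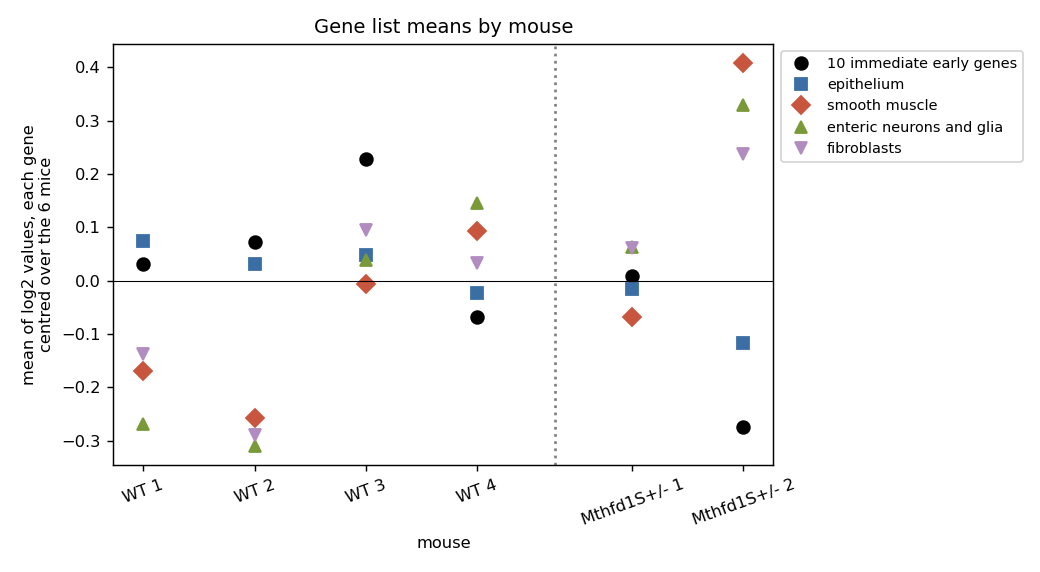
Mean of log2 values per mouse (vertical axis), each gene centred over the 6 mice, for the 10 immediate early genes and 4 marker lists; the dotted line parts WT from Mthfd1S+/- mice. The second Mthfd1S+/- mouse has the lowest mean of the 10 genes (-0.27) and the highest smooth muscle mean (0.41).

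Co-variation was measured as Pearson's r and Spearman's rho over the 6 mice for all 45 pairs of genes, with exact permutation p over the 720 orders and Benjamini-Hochberg adjustment over the 45. Fos values fell into separate clusters, 3 WT mice at 9.26 to 9.44 and the other 3 mice at 8.48 to 8.69, so no r of Fos is read as a relation. Of the 36 pairs without Fos, 3 reached an r of 0.8 and 9 were below 0, with a median of 0.26. Over all 276606960 pairs of tested clusters 3.15% reached 0.8 and the median was 0.004; clusters of 1 set of arrays are not independent. For none of the 45 pairs did r or rho pass an adjusted p of 0.05 in the permutation test (smallest 0.251 and 0.437). Of the pairs without Fos, 2 were at an unadjusted permutation p under 0.05 by r, and the same 2 by rho.

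Fosb and Atf3 had the highest r, 0.91 (rho 0.89, exact permutation p 0.0139 and 0.0333). With the genotype means subtracted it was 0.76, and without the 2 mice farthest from the Fosb median it was 0.67. Within the WT mice alone it was 0.61. Atf3 split the mice as Fos did, at 8.53 to 8.63 in WT mice 1 to 3 and 7.40 to 8.14 in the others, which limits this r. Fosl2 and Jun had 0.89 (rho 0.94, exact permutation p 0.00694 and 0.0167), and 0.91 with genotype means subtracted. In this pair WT mouse 1 was lowest for both genes, and r was 0.73 without that mouse and the first Mthfd1S+/- mouse. Without WT mice 1 and 4, the farthest from the Jun median, r was 0.95, and within the WT mice alone it was 0.98. Junb and Egr1 had 0.81 (rho 0.77, exact permutation p 0.0569 and 0.103), and 0.815 with genotype means subtracted. Without both WT mouse 3 and the first Mthfd1S+/- mouse it dropped to 0.33. Within the WT mice alone it was 0.36, so it also fell without the 2 Mthfd1S+/- mice. When any 1 mouse was left out it was 0.66 to 0.93. Jun and Fosb, whose proteins can form dimers, had an r of -0.36 (rho -0.37, exact permutation p 0.497 for each), and 0.185 without WT mouse 1 and the second Mthfd1S+/- mouse. Among 23520 other clusters ranked by r, Atf3 was number 194 for Fosb and Jun was number 172 for Fosl2. An r at least as high was reached by 0.825% and 0.731% of those clusters, so many clusters still ranked above these partners.

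**Figure D4:**
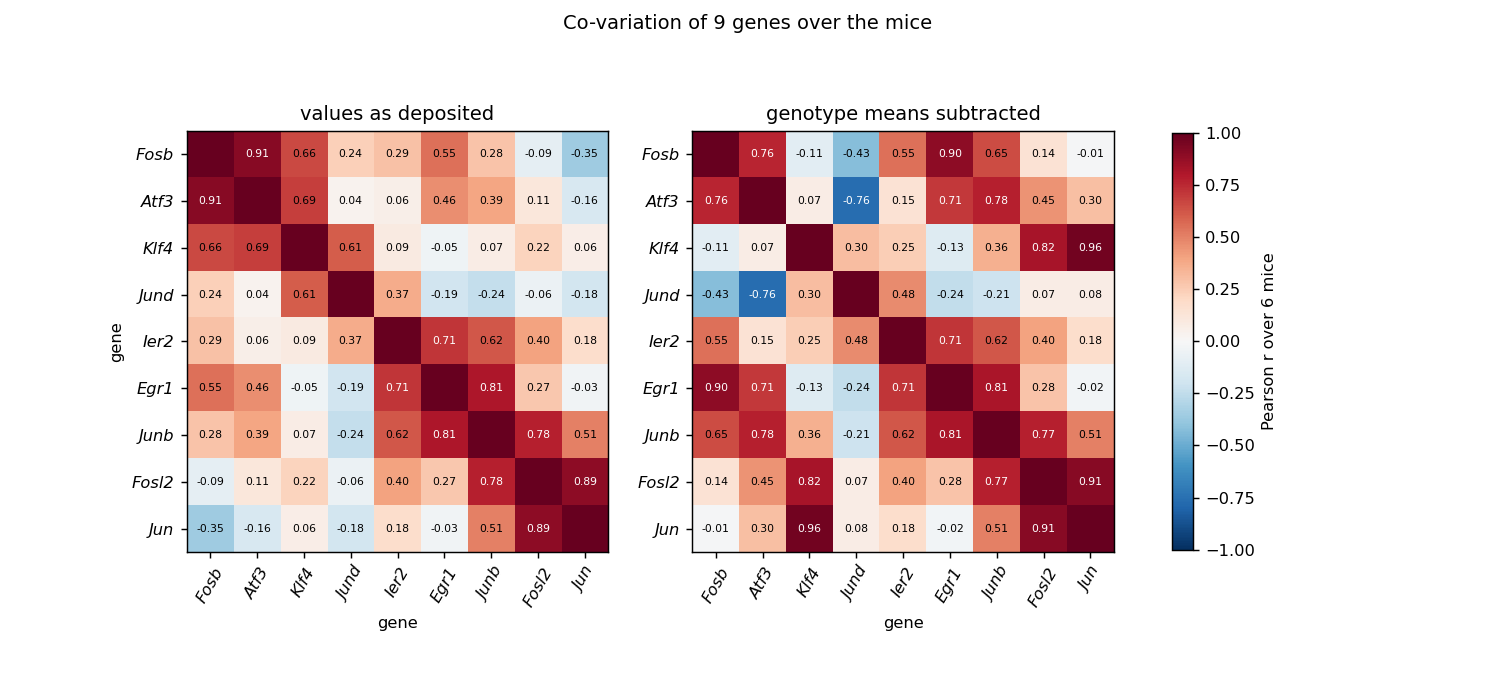
Pearson r over the 6 mice for each pair of 9 genes (both axes), from the deposited values on the left and with genotype means subtracted on the right; Fos is left out because its values form 2 clusters. Fosb with Atf3 (0.91 and 0.76), Fosl2 with Jun (0.89 and 0.91) and Junb with Egr1 (0.81 and 0.815) are high in both panels. On the right the 2 Mthfd1S+/- mice lie equally far above and below 0 for each gene. Within the WT mice alone these pairs had 0.61, 0.98 and 0.36. Jun with Klf4 (0.065 and 0.96), Fosl2 with Klf4 (0.22 and 0.825) and Fosb with Egr1 (0.55 and 0.897) reach 0.8 on the right alone.

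By Pearson's r over the 6 mice, which for Fos mostly measures whether a gene shares its split into 3 high and 3 low mice, the genes nearest to Fos among 1555 clusters that were bright enough and varied enough, were Atp12a (r 0.977), Tnip3 (0.968), Duox2 (0.955) and Gsdmc2 (0.955). Ifit1bl1 (0.954), Isg15 (0.948), Tfrc (0.948) and AI662270 (0.93) followed. Atp12a, a proton pump subunit, read 7.58, 7.69, 7.70 and 6.31 in WT and 6.60 and 6.37 in Mthfd1S+/- mice. It shares with Fos the low value of WT mouse 4, so its groups overlap. Those most like Klf4 were Scgb1b3 (0.971), Eif4a2 (0.934), Gsdmc3 (0.926) and Tmem229b-ps (0.909), then AI662270 (0.90), Gsdmc2 (0.895), Kifc5b (0.892) and Jchain (0.875). Klf4 did not overlap between genotypes, so its r partly measures whether a gene shares that difference. Among these genes only Tmem229b-ps and Jchain overlapped between genotypes, and all read lower in Mthfd1S+/- mice. The gasdermin genes Gsdmc2 and Gsdmc3 are near-identical copies whose probes may read each other's transcripts. These r values describe 6 mice and follow from a search over many clusters.

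Around the 10 genes, other members of the response were counted in lists. Of the other AP-1 family genes 6 of 7 were measured and 0 were at an unadjusted p under 0.05, with a median difference of -0.041. Batf2 (-0.25 ± 0.14, SE), Batf3 (-0.24 ± 0.13), Atf2 (0.058 ± 0.080) and Batf (-0.037 ± 0.082) had the smallest p-values there. The 20 other immediate early transcription factors had a median of -0.035, with 13 negative. Csrnp1, a nuclear protein, had -0.37 ± 0.13 (unadjusted limma p 0.018). It was the 1 of 20 below 0.05, beside 5.79% of all clusters. Without the second Mthfd1S+/- mouse it had -0.28. Nr4a1, an orphan nuclear receptor, had -0.20 ± 0.10, the small Maf factor Maff 0.24 ± 0.13 and Egr3 -0.12 ± 0.083.

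Of 25 early products that are no transcription factors, 7 were at an unadjusted p under 0.05, beside 5.79% of all clusters, of which 4 were lower and 3 higher; 18 of the 25 were negative and the median was -0.096. Trib1, a pseudokinase, had -0.32 ± 0.099 (SE), the kinase gene Sik1 -0.28 ± 0.10 and the polo-like kinase gene Plk2 -0.41 ± 0.16. Groups did not overlap for 7 of the 25 genes, beside 14.0% of all clusters. For Trib1, Sik1 and Plk2, which were picked by p on the same values, both Mthfd1S+/- mice were below every WT mouse. Of them Trib1 alone kept an unadjusted limma p under 0.05 when any 1 mouse was left out. Ccn1 (Cyr61), a matrix protein, had -0.66 ± 0.24, which rests on the first Mthfd1S+/- mouse at 7.26 beside 8.31 in the second and 8.27 to 8.58 in WT. Without the first the difference was -0.14, and without the second it was -1.19.

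Higher in Mthfd1S+/- mucosa were Gadd45b, a stress sensor (0.37 ± 0.11, SE), Rgs2, a regulator of G protein signals (0.43 ± 0.14), and Nfkbia, the inhibitor of NF-kappa B (0.25 ± 0.093). Groups did not overlap for these 3, which were also picked by p on the same values. Rgs2 had 0.25 without the second Mthfd1S+/- mouse (unadjusted limma p 0.175). Without the first, Gadd45b had 0.27 (0.0759) and Nfkbia 0.18 (0.164). Gadd45b read 7.78, 7.89, 7.66 and 7.65 in WT and 8.22 and 8.01 in Mthfd1S+/- mice, opposite in sign to Fos and Atf3. The early genes measured thus did not share a direction.

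Of 13 MAP kinase feedback inhibitors, Errfi1, which inhibits the EGF receptor, had -0.46 ± 0.14 (SE, unadjusted limma p 0.012). It was the 1 of 13 below 0.05, beside 5.79% of all clusters. It read 8.90, 8.79, 8.68 and 8.36 in WT and 8.23 and 8.22 in Mthfd1S+/- mice, again with WT mouse 4 nearest to the latter, and its unadjusted limma p was 0.0504 or 0.0552 without either of them. Dusp2 (0.12 ± 0.082), Dusp6 (-0.23 ± 0.16) and Spry1 (-0.12 ± 0.10) did not reach 0.05, and the median was -0.050. Upstream kinases (11 of 16 measured) had a median of -0.11 with 0 at 0.05; Map2k6 (-0.24 ± 0.15), Map2k3 (-0.14 ± 0.095), Map2k4 (-0.12 ± 0.087) and Mapk14 (-0.14 ± 0.12) had the smallest p-values. Promoter-bound regulators such as Srf and Creb1 (11 of 12 measured) had a median of 0.043, also with 0; Crtc1 (0.0999 ± 0.077), Elk1 (-0.098 ± 0.096), Crtc2 (0.092 ± 0.095) and Crtc3 (0.085 ± 0.095) led there. All adjusted p-values of the genes in these lists were at least 0.837 in limma.

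**Figure D5:**
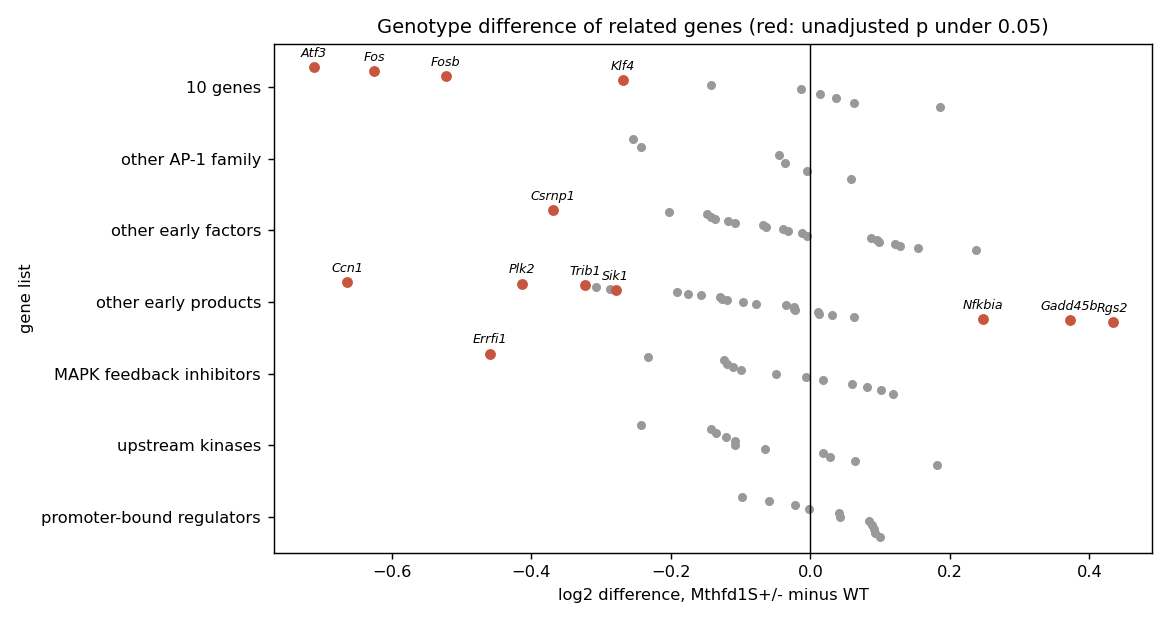
Log2 difference, Mthfd1S+/- minus WT (horizontal axis), for the 10 genes and 6 lists of related genes, 1 point per gene; red points with names had an unadjusted p under 0.05. Of the 10 genes, 4 are red and negative, and of the other early products 4 are red and negative and 3 red and positive.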

How the data were processed

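Values are log2 expression per transcript cluster, as deposited; the authors computed them in Affymetrix Expression Console, according to the submitters' processing notes. No version, algorithm, background correction or build is named in those notes or the labels, and the log base was inferred from the span of the values (1.063 to 13.51). Of 41345 clusters, 1814 with several symbols and 16010 with none were not tested. Limma 3.58.1 (R 4.3.3; lmFit, then eBayes, without covariates) compared the genotypes, after its steps were tested on simulated data. Precision is limited by the 6 arrays. The genes and lists were chosen with earlier results of these data known. The text names all 10 genes and, in each other list, up to 4 with the smallest p plus any at an unadjusted p under 0.05. The 8 genes most like Fos or Klf4 came from clusters at or above the median level that ranged over at least 0.5, leaving out predicted genes, small RNAs and receptor families. Replicates are separate mice, per the labels. Whether a dim cluster exceeded background was not assessed. Alternatives were other scalings, filters, Jund's other cluster, other variance priors, the identifier letter, the replicate number as a block, and leaving out each mouse.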

Additional observations from a re-analysis of the deposited data

Results flagged for a closer look

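Of 37 named genes tested, 2 had 1 WT mouse apart from the other 3 by more than Dixon's 95% critical value, which chance reaches in about 1 of 20 groups. Atf2 read 8.08 in WT mouse 3, below the other WT mice. Spry1 read 7.06 in WT mouse 2, also below the others. None of the 10 immediate early genes met this criterion.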

How the results depend on the processing

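The count of the 10 genes lower at an unadjusted p under 0.05 was 4, was 1 with unmoderated least squares, and ranged from 0 (without the second Mthfd1S+/- mouse) to 4 when a mouse was left out. Adjusted calls were 0 under each setting run, over the 10 genes and over all clusters. The median difference ranged from -0.22 to -0.027 when a mouse was left out. The signs of Atf3, Fos, Fosb, Klf4, Jun and Jund held under each setting run. Egr1 turned to 0.0043 when arrays were quantile normalized again, 0.014 when median-centred and 0.043 with the replicate block, and ranged from -0.38 to 0.35 when a mouse was left out. In the same way Fosl2 ranged from -0.055 to 0.18, Junb from -0.17 to 0.25 and Ier2 from -0.096 to 0.13; the cause was not tested. Pairs with an r of at least 0.8 were 6 of 45, and 3 to 9 when a mouse was left out. The median r was 0.22, 0.399 with genotype means subtracted, and from -0.0087 to 0.44 when a mouse was left out. Replicate numbers 1 and 2 are shared by both genotypes, and the correlations of their deviations were 0.12 and -0.044, so the numbers are not read as pairs. With the number as a block, 3 of the 10 genes were lower at that p the median difference was 0.0057, and 2331 clusters in place of 1363 were at an unadjusted p under 0.05. Where a Mthfd1S+/- mouse is left out, the other is assumed to vary like WT mice.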
